A study of Mus musculus with 4 samples.

Results

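Leukocyte integrins are described here across c-Kit high leukemic cells of mice with and without Msi2. They comprise 10 genes chosen by symbol, Itgam, Itgb2, Itgal, Itgax, Itga4, Itga5, Itga6, Itgb1, Itgb3 and Itgb7, of 23284 gene rows in all. All 10 were found and all 10 passed the filter on low counts, which left 13215 genes to test. The study addressed what Msi2, which encodes a Musashi RNA-binding protein, sustains in MLL leukemia. The sequenced RNA was that of C57BL/6 leukemic cells with high c-Kit (a growth factor receptor marking immature blood cells) on sorting. The 2 control mice were Msi2 flox/flox, carrying intact alleles flanked by loxP sites, and the 2 other mice were Msi2 -/-. Each of the 4 libraries is 1 mouse. The sources used here do not give age, sex, the deleting Cre, the oncogene construct or any treatment.

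Integrins are surface receptors made of 1 alpha and 1 beta chain, and the 2 chains are encoded by separate genes. Those with the beta 2 chain are restricted to leukocytes and bind intercellular adhesion molecules and complement fragments during arrest, phagocytosis and migration. Those with the alpha 4, alpha 5 or alpha 6 chain bind VCAM1, fibronectin or laminin, and hold stem and progenitor cells in the bone marrow. Cytoplasmic proteins such as talin and kindlin 3 switch integrins to their binding form, and kinases pass signals inward once ligand is bound.

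Reads assigned to genes numbered between 72273679 and 87564774 per library, where 3 counts correspond to between 0.0343 and 0.0412 CPM (counts scaled by library size to a common total). Msi2 stood at 34.6 and 48.9 CPM in control replicates 1 and 2 and at 0.0915 and 0.221 CPM in Msi2 -/- replicates 1 and 2. Of the markers of the labelled cell type, Kit, Ptprc, Hoxa9, Hoxa10, Meis1 and Myb were at 50.4 CPM or more in every library, whereas Flt3 was at 4.39 CPM or less. Cd34, a further progenitor marker, had 20.3 and 43.5 CPM in the controls, against 79.8 and 7.02 CPM in Msi2 -/- mice, which lay on either side of the controls. Markers of lymphoid cells were mixed. The T cell genes Cd3e, Cd3g and Cd8a, the B cell genes Ms4a1, Pax5 and Ebf1 and the NK cell genes Ncr1 and Klra8 had 0 counts in all 4 libraries. Others of these lists were present, with Nkg7 between 22.8 and 177 CPM, Cd79b between 18.5 and 26.3 CPM, Lck at 9.95 CPM or less and Tcf7 between 1.84 and 6.57 CPM. DESeq2 called Cd79b and Tcf7 lower in the Msi2 -/- mice. The summed level of 12 late neutrophil genes was 1182 and 808 CPM in the controls, against 1504 and 2578 CPM in Msi2 -/- mice, most of it from S100a8, S100a9 and Ngp. DESeq2 called 4 of them higher (S100a8, S100a9, Ltf and Lcn2) and 1 lower, Cxcr2, with 6.59 and 9.40 CPM in the controls, against 1.58 and 3.57 CPM in Msi2 -/- mice. Mmp8 and Mmp9 also had log2 fold changes below 0, without a call. The sum of 11 monocyte and macrophage genes was 1568 and 1565 CPM in the controls, against 1198 and 2505 CPM in Msi2 -/- mice, and most of it was Ly6c2. In that list Csf1r, Cd14 and Cd68 were higher in both Msi2 -/- mice, and DESeq2 called Csf1r, with 4.32 and 6.39 CPM in the controls, against 10.5 and 14.0 CPM in Msi2 -/- mice. Xist had 1455 and 654 CPM in the controls, against 0.469 and 0.624 CPM in Msi2 -/- mice, so a difference of sex and the genotype cannot be told apart. The labels start each library name with a number that differs between the groups and is the same within each, of unstated meaning, so that if it stands for a batch, batch and genotype cannot be told apart. The p-values rest on the spread between these 4 mice within their groups, which each test moderates with the spread seen across all genes.

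The genes for both chains of CD11b/CD18, Itgam and Itgb2, were higher in both Msi2 -/- mice, and DESeq2 called them while edgeR did not. In simulated counts DESeq2 made more false calls than edgeR, but those counts were drawn with edgeR's own estimates of spread and need not resemble these libraries. For the deleted gene Msi2 itself edgeR gave an adjusted p of 0.122 and DESeq2 gave 6.35e-80. A missing edgeR call therefore does not show an unchanged level. Itgb3 and Itga6 were lower in both Msi2 -/- mice, Itga6 by very unequal amounts, and Itga4 and Itga5 lay within 1.35-fold and 1.12-fold of themselves across all 4 libraries. By edgeR's quasi-likelihood test 0 of the 10 genes had an adjusted p under 0.05, against 0.00757% of all tested genes. At an unadjusted p under 0.05 edgeR had 2 members higher and 1 lower, against 6.69% and 6.17% of all tested genes. At an adjusted p under 0.05 DESeq2 called 2 members higher and 0 lower, against 3.1% and 2.71% of all genes it tested (5.81% in either direction), and limma-voom called 0. For 3 members both Msi2 -/- libraries lay above both controls and for 3 they lay below, against 23.7% and 24.6% of all tested genes (48.3% in either direction). The median log2 fold change of the 10 members was 0.05, with 5 above 0 and 5 below, and that of all tested genes was -0.0020.

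**Figure D1:**
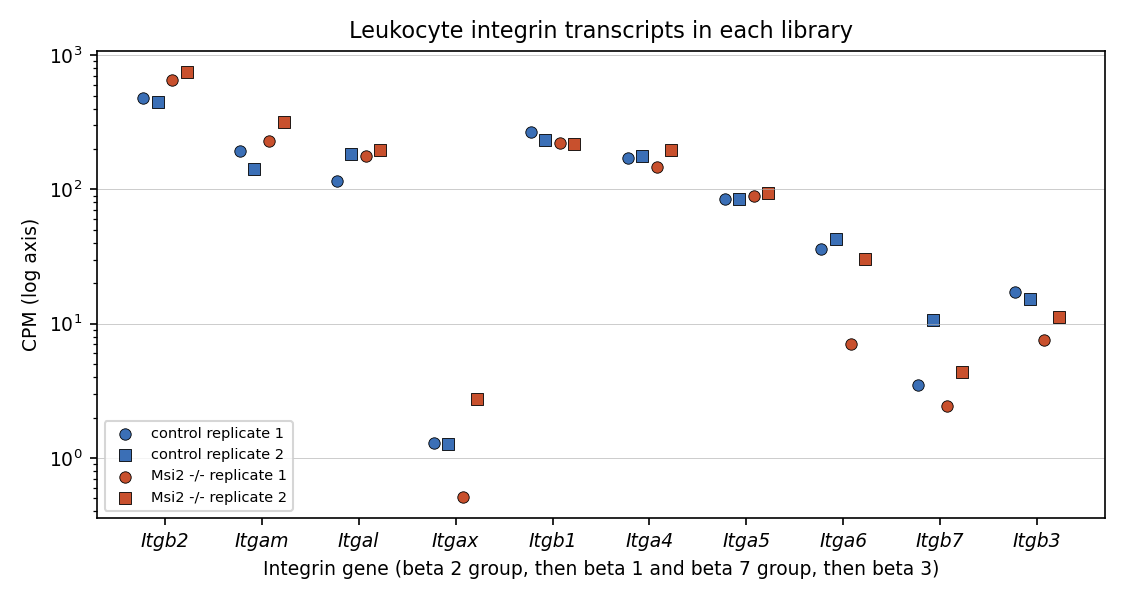
CPM of the 10 leukocyte integrin genes on a log axis, 1 point per library, with controls in blue and Msi2 -/- mice in orange (circles replicate 1, squares replicate 2). Itgb2 and Itgam stand higher in both Msi2 -/- libraries, Itgb3 stands lower in both, and Itga6 and Itgax differ most between the Msi2 -/- mice.

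The promoter of Itgam is shown because Itgam was called by DESeq2 and because Spi1, the gene of the ETS factor PU.1 that is known to act at this promoter, was also called. The promoter of Itga4 is shown beside it as that of a member whose level hardly differed. Promoter windows from RefSeq on GRCm38.p6 were matched for 6 of the 10 members, Itgam, Itgax, Itga4, Itga5, Itgb1 and Itgb7. No window was matched for Itgb2, the other member called by DESeq2. Both sequences below hold the 250 bases before the annotated start, 5′ to 3′ on the gene's strand, with capitals marking GAGGAA, the core of a PU.1 site, on either strand. Itgam lies at chr7:128062390-128062639 and Itga4 at chr2:79255176-79255425, both on the plus strand of GRCm38.p6.
Itgam: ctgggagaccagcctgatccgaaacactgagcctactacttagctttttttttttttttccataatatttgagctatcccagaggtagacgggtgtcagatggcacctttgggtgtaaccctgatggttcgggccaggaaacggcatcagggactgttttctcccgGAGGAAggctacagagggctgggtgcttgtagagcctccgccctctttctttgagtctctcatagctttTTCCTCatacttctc
Itga4: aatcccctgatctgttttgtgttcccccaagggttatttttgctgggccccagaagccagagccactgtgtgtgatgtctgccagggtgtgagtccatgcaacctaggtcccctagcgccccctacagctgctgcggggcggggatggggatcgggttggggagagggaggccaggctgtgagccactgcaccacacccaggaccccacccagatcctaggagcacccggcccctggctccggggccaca
The Itgam window holds GAGGAA 2 times, beginning 84 bases before the start on the plus strand and 15 bases before it on the minus strand. The Itga4 window holds none. Among the other 4 windows, those of Itga5, whose level also hardly differed, and Itgb1, slightly lower in both Msi2 -/- mice, hold 1 match each. Those of Itgax and Itgb7 hold none. A part of PU.1 in any of these levels was not tested. Of 32841 promoter windows of this length 23.3% hold the motif, so matches in 3 of 6 windows are a description of these letters only. The RUNX motif TGTGGT, which does not overlap GAGGAA, is found once among the 6 windows, in that of Itga4 on the minus strand at 60 bases before the start, and in 14% of all windows.

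Itgb2 encodes CD18, the beta 2 chain shared by the leukocyte-restricted integrins. It had 480 and 447 CPM in control replicates 1 and 2 and 652 and 751 CPM in Msi2 -/- replicates 1 and 2. Both Msi2 -/- libraries were above both controls, and the groups did not overlap. The means were 464 ± 23.1 and 701 ± 69.9 CPM (SD, n = 2 each), which is a log2 fold change of 0.60 (SE 0.0996) or 1.51-fold. The adjusted p was 0.273 by edgeR and 2.60e-05 by DESeq2. With any of the 4 libraries left out its DESeq2 log2 fold change stayed between 0.50 and 0.70. A fit with a library left out has 1 mouse in a group, which is assumed to vary like the other group. Its p-value therefore does not measure the spread in that group. Itgb2l, a gene resembling Itgb2 that was looked at after its values were seen, had 11.7 and 6.91 CPM in the controls, against 13.0 and 16.2 CPM in Msi2 -/- mice.

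Itgam encodes CD11b, the alpha M chain, which with CD18 forms the complement receptor Mac-1 of neutrophils and monocytes. It had 192 and 143 CPM in the controls, against 231 and 320 CPM in Msi2 -/- mice. The groups did not overlap, but control replicate 1 and Msi2 -/- replicate 1 were close. On the log2 scale the difference was 0.72 (SE 0.224), or 1.64-fold, and edgeR and DESeq2 gave adjusted p of 0.357 and 0.0319. DESeq2 no longer called Itgam without control replicate 2 (log2 fold change 0.53, adjusted p = 0.649) or without Msi2 -/- replicate 2 (0.47, adjusted p = 0.194). The sum of the late neutrophil genes, given above, was also highest in Msi2 -/- replicate 2 and lowest in control replicate 2. Single genes of that list differed, with Ltf highest in Msi2 -/- replicate 1 and Mmp8 and Cxcr2 highest in control replicate 2. Of the monocyte genes, Csf1r, Cd14 and Cd68 were also higher in both Msi2 -/- mice. Ccr2, Emr1, Ly6c2, Fcgr1 and Mrc1 were below both controls in Msi2 -/- replicate 1, as was the sum of that list. The part of neutrophils or of monocytes in the Itgam and Itgb2 values was not tested. In bulk libraries a different share of cells of a type and a different amount of RNA per cell cannot be told apart.

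Itgal encodes CD11a, the alpha L chain, which with CD18 forms LFA-1, a receptor for ICAM1. It had 115 and 184 CPM in the controls, against 178 and 197 CPM in Msi2 -/- mice. Control replicate 1 was the low library, and control replicate 2 lay between the Msi2 -/- mice, so the groups overlapped. On the log2 scale the difference was 0.32 (SE 0.243), and edgeR and DESeq2 gave adjusted p of 0.613 and 0.584. Without control replicate 2 it was 0.71 by DESeq2, and without control replicate 1 it was 0.03.

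Itgax encodes CD11c, the alpha X chain, best known from dendritic cells. It had 1.30 and 1.28 CPM in the controls, or 105 and 93 counts, and 0.515 and 2.74 CPM in the Msi2 -/- mice, or 45 and 211 counts. The controls were nearly equal, and the Msi2 -/- mice lay on either side of them, 2.41 apart on the log2 scale. The log2 fold change of 0.34 (SE 0.834) had an edgeR adjusted p of 0.889, and it was -1.32 without Msi2 -/- replicate 2 and 1.10 without Msi2 -/- replicate 1. The summed level of 10 dendritic cell markers was 71.7 and 71.5 CPM in the controls, against 86.3 and 93.4 CPM in Msi2 -/- mice. Most of it was Bst2, at 54.2 and 55.7 CPM in the controls, against 75.3 and 74.0 CPM in Msi2 -/- mice, which DESeq2 called higher. H2-Ab1 lay between 7.23 and 17.3 CPM, Flt3 and Cd74 reached 4.39 and 3.73 CPM, and Siglech and Cd209a had 0 counts in all 4 libraries. The part of such cells in the Itgax values was not tested. Itgam, Itgax and Itgad are adjacent genes on chromosome 7 in the GRCm38.p6 RefSeq table, with 0 protein-coding genes between Itgam and Itgax and 35 between Itgal and Itgam. Itgad, for the alpha D chain, had 0.617 and 0.974 CPM in the controls, against 0.538 and 0.403 CPM in Msi2 -/- mice.

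Itgb1 encodes CD29, the beta 1 chain that pairs with the alpha 4, alpha 5 and alpha 6 chains. It had 269 and 234 CPM in the controls, against 222 and 217 CPM in Msi2 -/- mice. Both Msi2 -/- libraries were below both controls by a small amount, with a log2 fold change of -0.20 (SE 0.0915; -0.091 without control replicate 1 and -0.29 without control replicate 2) and an adjusted p of 0.443 by edgeR and 0.392 by DESeq2. The log2 ratio of Itgb2 to Itgb1 CPM within a library, which does not depend on library size, was 0.84 and 0.93 in the controls and 1.56 and 1.79 in the Msi2 -/- mice. This ratio was higher in both Msi2 -/- mice, and its choice followed a look at its values.

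Itga4 encodes CD49d, which with beta 1 forms VLA-4, the receptor for VCAM1 and fibronectin. It had 171 and 178 CPM in the controls, against 147 and 197 CPM in Msi2 -/- mice. The Msi2 -/- mice lay on either side of the controls, and the log2 fold change was -0.02 (SE 0.159, edgeR adjusted p = 0.968). Itga5 encodes CD49e, which with beta 1 forms the classic fibronectin receptor. It had 84.5 and 84.8 CPM in the controls, against 89.5 and 94.3 CPM in Msi2 -/- mice. The groups did not overlap, but the log2 fold change was only 0.12 (SE 0.0651), and edgeR and DESeq2 gave adjusted p of 0.493 and 0.551.

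Itga6 encodes CD49f, which with beta 1 binds laminin. It had 35.8 and 43.1 CPM in the controls, or 2904 and 3138 counts, and 7.05 and 30.4 CPM in the Msi2 -/- mice, or 616 and 2337 counts. Both Msi2 -/- libraries were below both controls, with replicate 1 far below the other 3 libraries. On the log2 scale the difference was -1.08 (SE 0.708), and edgeR and DESeq2 gave adjusted p of 0.566 and 0.674. It was -2.48 without Msi2 -/- replicate 2 and -0.37 without Msi2 -/- replicate 1, by edgeR. Cd24a, for the heat stable antigen, a further surface gene picked after its values were seen, was also lowest in Msi2 -/- replicate 1, and had 375 and 401 CPM in the controls, against 134 and 515 CPM in Msi2 -/- mice. Of the 10 integrin genes 5 had their lowest level in Msi2 -/- replicate 1, namely Itgax, Itga4, Itga6, Itgb3 and Itgb7. In Msi2 -/- replicate 2 6 had their highest level, namely Itgam, Itgb2, Itgal, Itgax, Itga4 and Itga5. The shares over all tested genes were not counted, so these counts only describe the members.

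Itgb7 encodes the beta 7 chain, which with alpha 4 binds the gut homing ligand MADCAM1. It had 3.48 and 10.7 CPM in the controls, against 2.43 and 4.39 CPM in Msi2 -/- mice. Control replicate 2 stood well above the other 3 libraries, and the groups overlapped. The log2 fold change of -1.05 (SE 0.651, edgeR adjusted p = 0.542) was -0.03 without control replicate 2 and -1.64 without control replicate 1. Itgb3 encodes CD61, the beta 3 chain of the platelet fibrinogen receptor and of the vitronectin receptor. It had 17.2 and 15.1 CPM in the controls, against 7.54 and 11.1 CPM in Msi2 -/- mice. Both Msi2 -/- libraries were below both controls, with a log2 fold change of -0.79 (SE 0.244) or 0.577 times the control level. The adjusted p was 0.352 by edgeR and 0.0704 by DESeq2. By DESeq2 the log2 fold change was -1.10 without Msi2 -/- replicate 2 and -0.53 without Msi2 -/- replicate 1. It was -0.69 without control replicate 1 and -0.87 without control replicate 2. Its alpha partners, Itgav and Itga2b, had log2 fold changes of 0.36 and 0.41 without a call. Itgav had 59.2 and 41.3 CPM in the controls, against 62.0 and 66.7 CPM in Msi2 -/- mice, and Itga2b, the platelet alpha chain, was at 1.11 CPM or less in every library. The summed level of 10 megakaryocyte and platelet genes was between 6.49 and 13.9 CPM. Itgb3 lies on chromosome 11, as does Msi2, with 360 protein-coding genes between them in the RefSeq table.

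**Figure D2:**
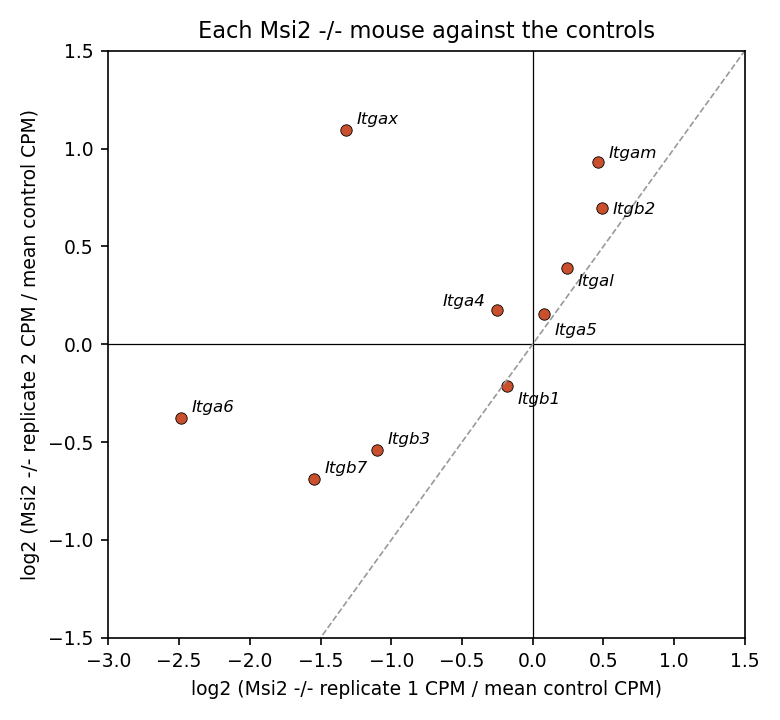
Each point is 1 leukocyte integrin gene, placed by the log2 ratio of Msi2 -/- replicate 1 (x axis) and of Msi2 -/- replicate 2 (y axis) to the mean control CPM, with the dashed line marking equal values. Itgb2, Itgam, Itgal and Itga5 lie above 0 for both mice, Itgb1, Itgb3, Itgb7 and Itga6 below 0 for both, and Itgax and Itga4 on opposite sides.

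The Msi2 -/- mice were further apart from each other than the controls were for 7 of the 10 genes, and the controls were further apart for Itgal, Itgb1 and Itgb7. The gap between the Msi2 -/- mice on the log2 scale was 2.41 for Itgax and 2.11 for Itga6, where the controls were 0.022 and 0.27 apart. Over the 10 members the gap had a median of 0.19 in the control pair and 0.45 in the Msi2 -/- pair, and over all tested genes it was 0.15 and 0.17.

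Levels can be compared between genes only per length, so CPM were divided by the exon length of each gene in GENCODE vM21. On this scale, in CPM per kb, Itgb2 led in the controls at 156 ± 7.79 and Itgb1 followed at 65.9 ± 6.43 (SD, n = 2 each, as for the next values). Among alpha chains Itgam had 34.0 ± 7.01 CPM per kb, Itgal 23.5 ± 7.66, Itga5 19.3 ± 0.0371, Itga4 17.9 ± 0.517 and Itga6 9.04 ± 1.17. The order of Itgal, Itga5 and Itga4 is not fixed, since the Itgal libraries, at 18.1 and 28.9, spanned the values of Itga5 and part of those of Itga4. Itgb3 and Itgb7 were lower at 2.80 ± 0.250 and 2.64 ± 1.90 CPM per kb and overlapped, and Itgax was lowest at 0.297 ± 0.00314. In the Msi2 -/- mice the level per length was 236 ± 23.5 for Itgb2, and Itgb1 at 57.5 ± 0.805 and Itgam at 55.9 ± 12.7 overlapped. Itga6 there was at 4.29 ± 3.78 CPM per kb. These lengths come from an annotation of GRCm38, whereas mm9 is the build in the submitters' processing notes, and sequence bias between genes was not corrected.

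Of the alpha chains that pair with beta 2, taken per length, Itgam and Itgal together made up nearly all. Itgam held 67.8% and 49.7% of their sum in the controls and 62.6% and 67.3% in the Msi2 -/- mice, and Itgal held 31.4% and 49.4% against 37.1% and 31.9%. The groups overlapped for both shares, with control replicate 2 apart from the other libraries. Of the 4 beta chains among the members, Itgb2 held 68.4% and 68.9% of the summed level per length in the controls and 78.4% and 80.7% in the Msi2 -/- mice. Itgb1 held 29.8% and 28.1% against 20.8% and 18.2%. Both beta shares were apart between the groups by more than the replicates were, and the difference in shares was not tested.

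**Figure D3:**
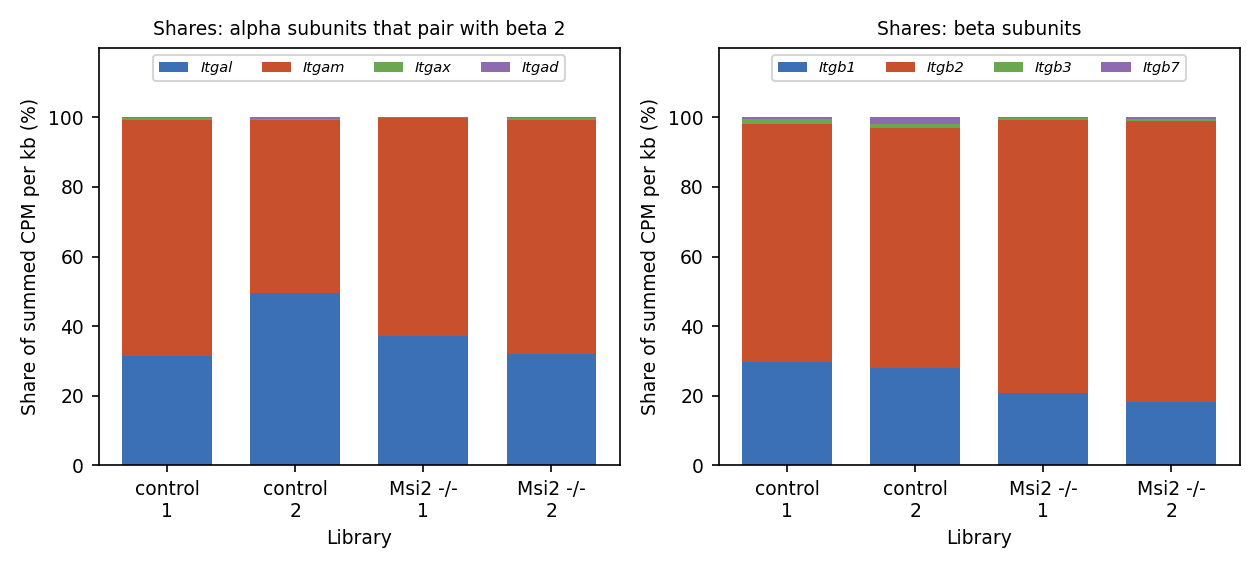
Stacked bars give, for each library, the percentage of summed CPM per kb held by each alpha chain gene that pairs with beta 2 (left) and by each beta chain gene among the members (right). The Itgb2 share is 68.4% and 68.9% in the controls and 78.4% and 80.7% in the Msi2 -/- mice, while the Itgam share of the alpha chains overlaps between the groups.

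A list of 16 further integrin subunit genes was looked at beside them. Of these, 10 passed the filter, and Itgb6 and Itgb8 had 0 counts in all 4 libraries. By edgeR 0 of the 10 had an adjusted p under 0.05, and at an unadjusted p under 0.05 there were 0 higher and 1 lower. Of 11 further subunits with a DESeq2 adjusted p, 0 were called higher and 1 lower. Over all tested genes the shares were 6.69% and 6.17% at that unadjusted p and 3.1% and 2.71% by DESeq2. A count of 1 gene is too small to set against these shares. The call was Itga1, for the alpha 1 chain of a collagen receptor, with 9.02 and 16.1 CPM in the controls, against 0.892 and 4.32 CPM in Msi2 -/- mice. Both Msi2 -/- libraries were below both controls, with a log2 fold change of -2.27 (SE 0.84), an edgeR adjusted p of 0.389 and a DESeq2 adjusted p of 0.0445. Its edgeR log2 fold change was -3.81 without Msi2 -/- replicate 2 and -1.53 without Msi2 -/- replicate 1, and DESeq2 no longer called it without control replicate 1 (adjusted p = 0.154) or control replicate 2 (adjusted p = 0.994). Itgb5, for the beta 5 chain that pairs with alpha V, had 50.9 and 58.8 CPM in the controls, against 96.2 and 47.4 CPM in Msi2 -/- mice, so that the latter enclosed the former. Itgav had a log2 fold change of 0.36 (SE 0.193, edgeR adjusted p = 0.489). Itga10, a further collagen-binding chain, was at a log2 fold change of -0.14 (SE 0.367) and lay between 3.29 and 6.09 CPM. Itga2b, Itga7, Itga8, Itgad, Itgae and Itgb4 stayed at 1.59 CPM or less in every library, with log2 fold changes from -1.02 for Itga8 to 0.90 for Itga7. These directions rested on single libraries for 6 of the 10 further subunits, Itga7, Itga8, Itga10, Itgae, Itgb4 and Itgb5, whose sign reversed with some library left out. Itga8 was at 1.12 without control replicate 1, and Itga7 at -0.25 without Msi2 -/- replicate 1.

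**Figure D4:**
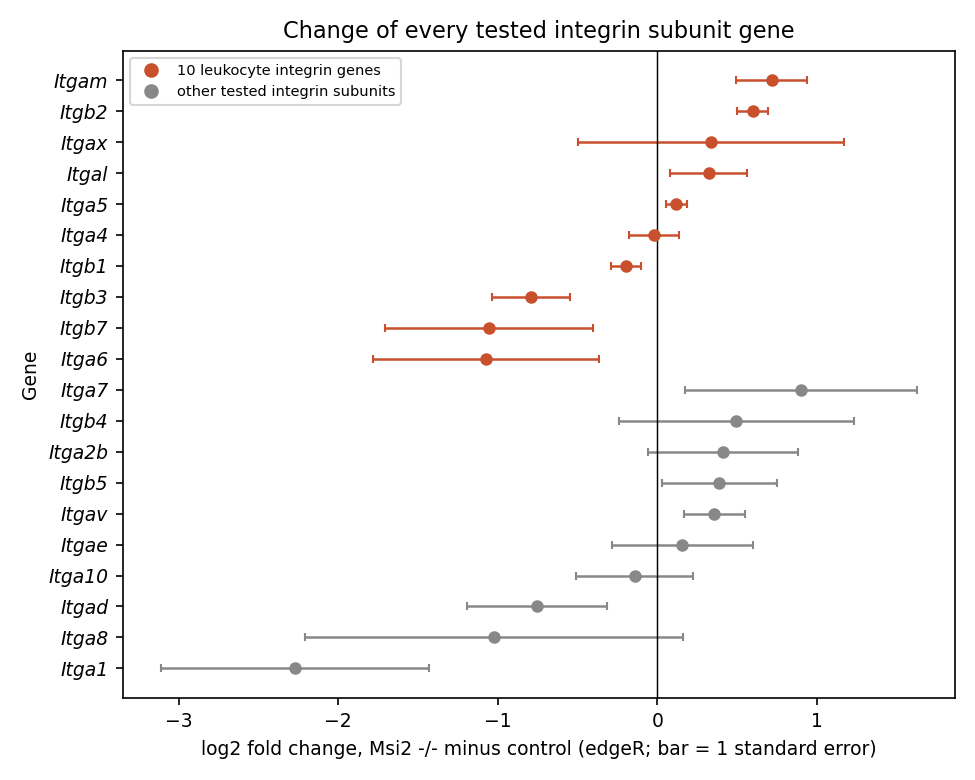
Log2 fold change (Msi2 -/- minus control, edgeR) of the 20 tested integrin subunit genes with bars of 1 standard error, the 10 leukocyte integrin genes in orange and the others in grey. Itgam and Itgb2 lie above 0, and Itgb3 below 0, by more than 3 standard errors, without an edgeR adjusted p under 0.05. Itga8 has the widest bar, and those of Itga1, Itgax, Itgb4, Itga7, Itga6 and Itgb7 are also wide.

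Of all 13215 tested genes 6574 stood above 0 and 6641 below it on the log2 scale, and the shares just given for unadjusted p and for DESeq2 are the background of the counts that follow, which were not tested as lists. DESeq2 called 17 genes in these lists and among the further subunits. With a library left out the calls of C3 and Irf8 held. Most others did not hold throughout, among them Ilk, Pxn, Zyx, Rac2 and Cd47. The share of kept calls over all genes was not counted. Such a fit has 1 mouse in a group, so a lost call need not mean a changed fold change. The edgeR log2 fold change then stayed between 0.26 and 0.30 for Ilk and between 0.23 and 0.41 for Pxn.

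Among genes that bring integrins to their binding form and tie them to actin, of 28 genes 24 were tested, and 20 of these stood above 0 and 4 below it on the log2 scale (median 0.18). By edgeR 9 higher and 0 lower had an unadjusted p under 0.05 and 0 passed its adjusted threshold. Adjusted calls by DESeq2 were 4 higher and 0 lower. Fyb, for the adaptor ADAP, had 1.68 and 1.10 CPM in the controls, against 14.9 and 5.30 CPM in Msi2 -/- mice, a log2 fold change of 2.86 (SE 0.616, DESeq2 adjusted p = 0.000127). It was 1.94 without Msi2 -/- replicate 1, and DESeq2 gave an adjusted p of 0.0559 without control replicate 2. Ilk, for integrin-linked kinase, had 114 and 117 CPM in the controls, against 141 and 139 CPM in Msi2 -/- mice (log2 fold change 0.28, SE 0.0623, adjusted p = 0.00859 by DESeq2). Pxn, for paxillin, and Zyx, for zyxin, both proteins of adhesion sites, were at log2 fold changes of 0.32 (SE 0.0869, DESeq2 adjusted p = 0.0444) and 0.37 (SE 0.0942, adjusted p = 0.0457 by DESeq2). All 4 genes were higher in both Msi2 -/- mice than in both controls, but they were picked for their DESeq2 calls, so this adds no support. Of the 24 tested genes 14 were higher and 1 lower without overlap of the groups, against 23.7% and 24.6% of all tested genes. Tln1, for talin 1, and Fermt3, for kindlin 3, were at log2 fold changes of 0.24 (SE 0.0742) and 0.20 (SE 0.0935) without a call.

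Signalling genes downstream of bound integrins had DESeq2 calls in both directions. Of 24 genes 23 were tested, with 18 above 0, 5 below and a median of 0.22. By edgeR 7 higher and 1 lower had an unadjusted p under 0.05 and 0 passed its adjusted threshold. Adjusted calls by DESeq2 were 4 higher and 1 lower. Ptk2, for focal adhesion kinase, had 6.66 and 7.01 CPM in the controls, against 2.22 and 2.40 CPM in Msi2 -/- mice, a log2 fold change of -1.56 (SE 0.219, DESeq2 adjusted p = 1.13e-07). Ptk2b, for its relative PYK2, overlapped between the groups, at 114 and 91.1 CPM in the controls, against 90.9 and 132 CPM in Msi2 -/- mice. Cbl, for a ubiquitin ligase, was at a log2 fold change of 0.74 (SE 0.131, DESeq2 adjusted p = 2.60e-04). Fcer1g, an adaptor of neutrophil integrin signalling, and Rac2, a GTPase of blood cells, were at log2 fold changes of 0.40 (SE 0.082, DESeq2 adjusted p = 0.0027) and 0.31 (SE 0.081, adjusted p = 0.0202 by DESeq2). Tyrobp, for the adaptor DAP12, was the fourth gene called higher, at a log2 fold change of 0.43 (SE 0.119, DESeq2 adjusted p = 0.0338).

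Ligand genes had no common direction. Of 27 genes 17 were tested, with 8 above 0, 9 below and a median of -0.14. By edgeR 3 higher and 1 lower had an unadjusted p under 0.05 and 0 passed its adjusted threshold. Adjusted calls by DESeq2 were 1 in each direction. C3, whose fragment iC3b is bound by CD11b/CD18, had 312 and 304 CPM in the controls, against 650 and 748 CPM in Msi2 -/- mice, a log2 fold change of 1.18 (SE 0.0947, edgeR adjusted p = 0.215, DESeq2 adjusted p = 2.28e-23). Lamc1, for a laminin chain, had 31.5 and 38.6 CPM in the controls, against 9.95 and 20.8 CPM in Msi2 -/- mice (log2 fold change -1.19, SE 0.39, adjusted p = 0.0385 by DESeq2). It was -1.82 without Msi2 -/- replicate 2 and -0.75 without Msi2 -/- replicate 1, and DESeq2 lost the call without control replicate 1 (adjusted p = 0.195) or control replicate 2 (adjusted p = 0.790). The genes of the cellular ligands Icam1 and Icam2 were at log2 fold changes of 0.23 (SE 0.115) and -0.42 (SE 0.201) without a call.

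All 15 genes of surface partners were tested, with 10 above 0, 5 below and a median of 0.05. By edgeR 3 higher and 0 lower had an unadjusted p under 0.05 and 0 passed its adjusted threshold. Adjusted calls by DESeq2 were 2 higher and 0 lower. Plaur, for the urokinase receptor that associates with CD11b/CD18, had 35.6 and 28.7 CPM in the controls, against 47.8 and 52.7 CPM in Msi2 -/- mice (log2 fold change 0.64, SE 0.144, adjusted p = 0.00576 by DESeq2). Cd47, for the integrin-associated protein, was at a log2 fold change of 0.23 (SE 0.0634, DESeq2 adjusted p = 0.0164). Of 14 transcription factor genes 13 were tested, with 8 above 0, 5 below and a median of 0.03. By edgeR 2 in each direction had an unadjusted p under 0.05 and 0 passed its adjusted threshold. Adjusted calls by DESeq2 were 1 higher and 2 lower. Spi1, listed in the files under its older symbol Sfpi1, had 244 and 214 CPM in the controls, against 317 and 309 CPM in Msi2 -/- mice (log2 fold change 0.45, SE 0.0897, adjusted p = 0.00126 by DESeq2). The 2 lower calls were Irf8, with 15.3 and 34.7 CPM in the controls, against 6.02 and 5.25 CPM in Msi2 -/- mice (log2 fold change -2.15, SE 0.442, adjusted p = 5.76e-05 by DESeq2; -1.44 without control replicate 2), and Myb, at a log2 fold change of -0.39 (SE 0.109, DESeq2 adjusted p = 0.0417). Runx1, for the partner of Cbfb at many myeloid promoters, was at a log2 fold change of 0.03 (SE 0.12).

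**Figure D5:**
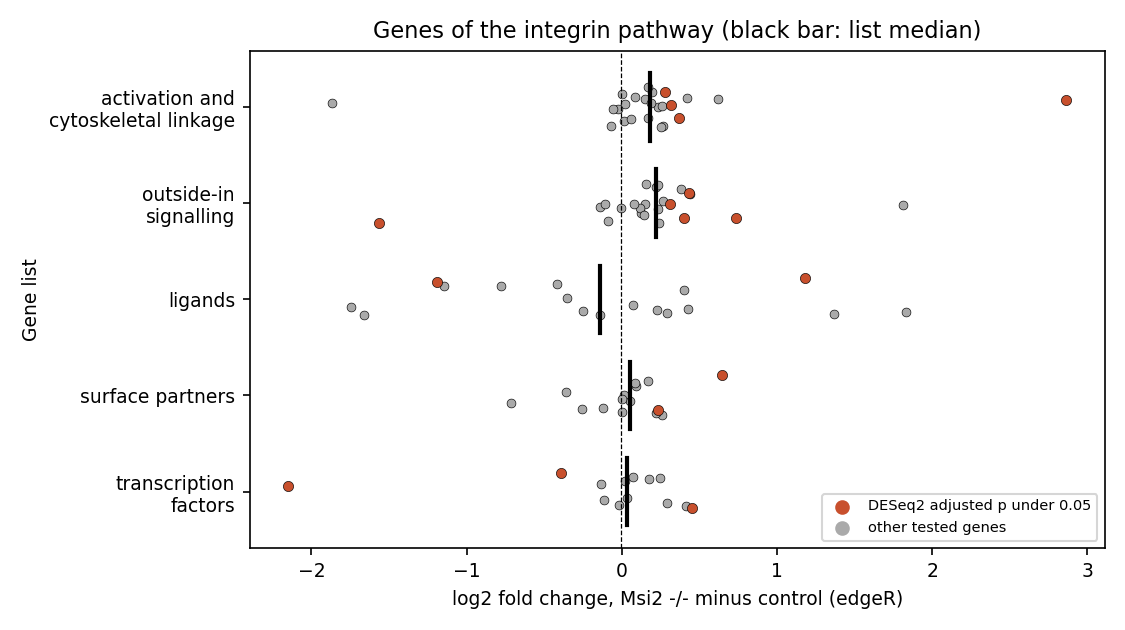
Each point is a tested gene of 1 of 5 integrin pathway lists, placed by its log2 fold change (Msi2 -/- minus control, edgeR), with genes called by DESeq2 in orange, black bars at list medians and a dashed line at the median of all tested genes. The medians are 0.18, 0.22, -0.14, 0.05 and 0.03 from top to bottom.

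The pattern over the 4 libraries was compared among the tested genes of these lists by the root mean square difference of log2 CPM, each gene centred on its own mean. Of 111 candidates Plaur (0.13), Itgb2 (0.16) and Vcl (0.17), the gene of vinculin, were closest to Itgam. Plaur (0.082), Tyrobp (0.088) and F11r (0.11), the gene of a junctional adhesion molecule bound by LFA-1, were closest to Itgb2. With 4 libraries in 2 groups this likeness is a description only.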

How the data were processed

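The authors deposited 1 file of raw, unnormalized counts by gene symbol for each mouse. The submitters' processing notes name mm9 as the build and Trimmomatic, STAR, HTSeq and DESeq as tools, with no version. The annotation and strand setting are not stated there or in the labels, and antisense or overlapping genes and close paralogs may therefore share reads. The 5 rows naming no gene held between 19.1% and 20.1% of the counts and were left out. In R 4.3.3, edgeR 4.0.16 (filterByExpr with minimum count 10 and minimum total 15, TMM scaling, quasi-likelihood test with group as the only term, two-sided, Benjamini-Hochberg over 13215 genes) was the main test. Standard errors come from the quasi-likelihood F statistic. DESeq2 1.42.0 (Wald test, no shrinkage, 13350 genes with an adjusted p) and limma 3.58.1 (voom) were alternatives. CPM use TMM-scaled library sizes. The chi-square statistic per gene between replicates was 51.7 for the controls and 125 for the Msi2 -/- mice, well beyond counting noise, and the 4 libraries were kept as separate samples. Older symbols were matched through the RefSeq table. The edgeR, DESeq2 and limma-voom fits were tested on simulated data, where each made more false calls than its threshold allows, DESeq2 the most. These data were drawn with edgeR's own estimates of spread, so they do not rank the tools for these libraries.

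The members and lists were chosen with earlier results of these data known. The genes named are Msi2, the 10 members, every further integrin subunit past the filter, up to 4 genes per list called by DESeq2 (smallest p first), and, as nearest patterns to Itgam and Itgb2, 3 genes each. Tyrobp in the signalling list, Tln1, Fermt3, Ptk2b, Icam1, Icam2, Runx1, Cd24a and Itgb2l, and the marker genes given with values, were added after their values were seen. Most list and marker genes are given only in counts. Alternatives changed the scaling, filter, test, depth, block and libraries. Those leaving a library out of DESeq2 were chosen after seeing the data.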

Additional observations from a re-analysis of the deposited data

How the results depend on the processing

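By edgeR 1 gene passed in all and 0 of the 10 integrin genes. The count over all genes was 6 with no filter, 776 by DESeq2, 312 by edgeR's likelihood ratio test and 0 by limma-voom, and between 0 and 106 with a library left out. Over the integrin genes it was 2 by DESeq2, 1 (Itgb2) by the likelihood ratio test, and between 0 and 1 with a library left out, the 1 being Itga6 without Msi2 -/- replicate 2. With a library left out DESeq2 called between 197 and 899 genes (390 without control replicate 1, 197 without control replicate 2) and between 2 and 3 integrin genes. These were Itgb2 and Itgam without control replicate 1 or Msi2 -/- replicate 1, Itgb2 and Itgal without control replicate 2, and Itgb2, Itga6 and Itgb3 without Msi2 -/- replicate 2. Where a library was left out, the lone mouse is assumed to vary like the other group.

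Of 130 log2 fold changes of the 10 genes under the alternatives 125 kept their direction, and 8 genes kept it in all. The exceptions were Itgax (-0.16 by limma-voom, and from -1.32 to 1.10 with a library left out, by edgeR and DESeq2) and Itga4 (from -0.25 to 0.19 by edgeR and to 0.18 by DESeq2 with a library left out). The cause was not tested. Most alternatives refit the same 4 libraries, so a kept direction was close to fixed there, and the share over all genes was not counted. Leaving out a library could change more. The kept directions include Itgal at only 0.024 without control replicate 1 and Itgb7 at only -0.027 without control replicate 2, both by edgeR. The 2 scaling alternatives moved the median of all genes to 0.00097 and -0.025.

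With the replicate block, edgeR called 0 genes and 0 integrin genes, and Itgax stood at -0.092. The replicate numbers are not stated to pair the mice. The deviations of same-numbered libraries correlated at 0.039 across genes, a single value that cannot decide whether the mice were paired.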
